A study of Mus musculus with 10 samples.

Results

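The genes described here are 39 mouse genes whose products copy DNA in S phase, taken by name from a list and measured as the sum of the estimated transcript counts of each gene. All 39 were found among the 30205 genes of the files, and all 39 were among the 15583 genes with enough counts to test; the lowest value of any of them in a library was 22 counts, for Orc1. The list was split by role into origin licensing (5 genes), the helicase ring (6), helicase activation (6), polymerases and primase (8), sliding clamp, clamp loader and single-strand binding (6), flap removal and ligation (2), nucleotide supply (4) and fork protection (2).

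The study sequenced RNA of sort-purified B lineage cells from C57BL/6 mice, with 5 groups of 2 libraries (10 in all), to ask what joint NF-kB and Notch activation does to B cells. The lymphoma libraries came from lymphoma cells of mice that carry Rosa-NIKdeltaT3flSTOP and Rosa-Notch2ICN together with CD19Cre. The doubly activated libraries have that genotype too and come from lymph node, with the cell type given as marginal zone precursor B cells. The Notch-labelled libraries (Rosa-Notch2ICN x CD19Cre) are labelled as marginal zone B cells of the lymph node, while their deposited tables are named with the letters that precursors carry. The NF-kB-activated libraries (Rosa-NIKdeltaT3flSTOP x CD19Cre) and the control libraries (wild type, with no allele or Cre listed) are likewise listed as lymph node marginal zone precursors. Every group other than lymphoma is described as pre-malignant. CD19Cre drives the recombinase from a B lineage gene, NIK is the kinase that starts the non-canonical NF-kB pathway, and Notch2ICN is the intracellular, signalling part of the receptor Notch2. Neither age nor sex is stated. Nor is it stated whether the libraries of a group stem from different mice, so every p-value below reflects the spread of these libraries alone, which may be technical; in control it is not only technical, since its 2 libraries differ in a Y-linked transcript, as given below.

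Copying the genome starts with licensing, in which the origin recognition complex, Cdc6 and Cdt1 load the ring of Mcm2 to Mcm7 onto DNA during G1. Cdc45, the GINS complex and Mcm10 turn the loaded ring into a running helicase, after which polymerase alpha with its primase lays down primers and polymerases epsilon and delta extend them on the clamp Pcna. Resting lymphocytes hold few of these transcripts, and a large part of the set is known to be switched on by E2F transcription factors as cells leave quiescence, as in B cells dividing in a germinal centre or a lymphoma. Mature marginal zone and precursor B cells are mostly out of cycle.

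The promoters of these genes are shown first because many hold the E2F letters that the set is known for. RefSeq (GRCm38.p6) windows of 300 bases, 250 before and 50 after the annotated start, were matched by symbol for 31 of the 39 genes (36 windows); Gins1, Gins2, Gins4, Gmnn, Mcm4, Pole, Prim2 and Rfc2 are named only. Both strands were searched for the 8-base forms TTTCCCGC, TTTGGCGC, TTTCGCGC and TTTGCCGC of the E2F site. A match was found for 14 of the 31 genes (45.2%), against 704 of 27025 genes (2.6%) with a window of that length. Of these, 9 had 1 match and 5 had 2 or more, with 3 in Mcm6, and matches on opposite strands overlap in Mcm5 and Mcm6. The CCAAT box was present for 61.3% of the 31 genes and 41.1% of all genes, and TTTGAA, the core of the cell cycle homology region, for 16.1% and 20.2%. A match is a stretch of letters and not a bound site. In GENCODE, the annotation used to sum the counts, some starts differ from those of RefSeq. It begins Cdc6 at 98907801, Lig1 at 13277283 and Mcm7, on the minus strand, at 138172422. By that annotation the windows of these genes lie inside the gene and not before it. The 250 bases before the start are printed for 3 genes, Mcm6, Cdc6 and Tk1. Mcm6 is the helicase subunit with the most matches, and Cdc6 has the largest log2 fold change by CPM in the data below. Tk1 has no match and lay above control in every other group. Sequences run 5′ to 3′ on the gene's strand, with every match of the printed stretch in capitals.
Mcm6 (chr1:128359706-128359955, minus strand): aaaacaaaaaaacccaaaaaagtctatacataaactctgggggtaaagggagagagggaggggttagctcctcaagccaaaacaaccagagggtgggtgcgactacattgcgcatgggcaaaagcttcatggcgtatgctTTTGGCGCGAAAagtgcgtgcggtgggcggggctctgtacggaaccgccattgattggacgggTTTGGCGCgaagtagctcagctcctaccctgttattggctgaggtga
Cdc6 (chr11:98907901-98908150, plus strand): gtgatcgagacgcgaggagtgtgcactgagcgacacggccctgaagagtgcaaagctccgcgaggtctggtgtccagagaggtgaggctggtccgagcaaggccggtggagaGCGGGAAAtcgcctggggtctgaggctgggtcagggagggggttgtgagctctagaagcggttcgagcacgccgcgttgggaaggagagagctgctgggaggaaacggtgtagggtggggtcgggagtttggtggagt
Tk1 (chr11:117826015-117826264, minus strand): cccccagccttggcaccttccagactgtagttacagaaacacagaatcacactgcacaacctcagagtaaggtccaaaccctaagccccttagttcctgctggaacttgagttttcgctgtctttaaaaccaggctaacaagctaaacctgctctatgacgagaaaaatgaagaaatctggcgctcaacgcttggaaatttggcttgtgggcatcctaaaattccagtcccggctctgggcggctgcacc
Shorter stretches around a match are given for 7 further genes, to show how far the letters beside it vary between members of different roles. Positions count from the annotated start, whose first base is 1.
Orc1 (chr4:108579416-108579445, plus strand, match from position -27): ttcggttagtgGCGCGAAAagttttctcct
Mcm3 (chr1:20820275-20820304, minus strand, match from position 20): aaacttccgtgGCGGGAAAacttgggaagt
Mcm5 (chr8:75109345-75109374, plus strand, overlapping matches from positions -153 and -149): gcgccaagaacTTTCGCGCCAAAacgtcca
Mcm7 (chr5:138171849-138171878, minus strand, match from position 17): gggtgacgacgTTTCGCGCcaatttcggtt
Rfc3 (chr5:151651200-151651229, minus strand, matches from positions -10 and 1): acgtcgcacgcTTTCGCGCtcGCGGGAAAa
Lig1 (chr7:13278841-13278870, plus strand, match from position 27): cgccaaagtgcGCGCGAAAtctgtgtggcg
Clspn (chr4:126556990-126557019, plus strand, match from position 22): accgcgtctggGCGCGAAAgctcgaacttc

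Levels are given as CPM, the usual library-scaled count unit, scaled between libraries by TMM, the trimmed mean normalization of edgeR, and differences as log2 fold change ± standard error. A gene is said to rise or fall where the adjusted p of edgeR, taken over all 15583 genes of a comparison, was below 0.05. Libraries held 16380889 to 23102081 estimated counts. The lymphoma and the Notch-labelled libraries stood apart from the rest: the most used heavy chain V segment held 92.1% to 93.8% of the Ighv counts in these 4 libraries and at most 7.29% in the other 6. Notch2 levels did not follow the Notch2ICN allele, at 155 and 178 CPM in lymphoma, 702 and 753 in doubly activated, 284 and 278 in Notch-labelled, 795 and 772 in NF-kB-activated and 652 and 689.7 in control libraries. Both lymphoma and Notch-labelled libraries thus lay below control, and doubly activated below NF-kB-activated libraries. Heyl, a Notch target, followed the allele, at 38.9 and 43.98 CPM in lymphoma, 23.3 and 25.6 in doubly activated and 50.9 and 44.1 in Notch-labelled against 2.94 and 2.15 in NF-kB-activated and 0.430 and 0.381 in control libraries. Map3k14, which encodes NIK, read 153 and 153 CPM in lymphoma, 244 and 255 in doubly activated and 220.0 and 217 in NF-kB-activated against 36.5 and 33.4 in Notch-labelled and 103 and 129.6 in control libraries. Stromal markers (Col1a1, Col1a2, Col3a1 and Dcn) summed to 618 and 837 CPM in the Notch-labelled libraries, where all 4 were detected, and to at most 3.10 CPM in every other library, where Dcn was at 0. Ddx3y, on the Y chromosome, had 2.40 and 1.88 CPM in the Notch-labelled and 59.8 and 0.653 CPM in the control libraries, and 109.6 CPM or more in the other 6. Germinal centre B cell markers, from the stage at which B cells divide and select for affinity, summed to 9.07 and 10.2 CPM in lymphoma, 45.8 and 38.8 in doubly activated, 19.7 and 21.3 in Notch-labelled, 42.7 and 66.3 in NF-kB-activated and 61.3 and 98.9 in control libraries, with Rgs13 at 0 in all lymphoma and Notch-labelled libraries. T cell markers summed to 26.00 and 22.1 CPM in lymphoma, 55.2 and 40.3 in doubly activated, 102 and 112 in Notch-labelled, 51.1 and 62.3 in NF-kB-activated and 76.01 and 84.9 in control libraries, and macrophage markers to 79.7 and 83.2 CPM in lymphoma, 26.6 and 16.4 in doubly activated, 91.96 and 69.5 in Notch-labelled, 127 and 80.4 in NF-kB-activated and 45.1 and 159.7 in control libraries. Erythroid markers summed to at most 5.40 CPM in any library. The 8 B cell markers were detected in all 10 libraries, with summed levels of 3796 and 3547 CPM in the Notch-labelled and 5862 to 9721 CPM in the others.

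Across the 5 groups most of the 39 genes shared the top of their order. The mean level was highest in the Notch-labelled libraries for 37 of them, in lymphoma for Tk1 and in doubly activated cells for Rfc2. The authors' TPM allow for the length of each transcript but are not scaled by TMM, so a shift between units can be shared by many genes. By TPM the mean was highest in the Notch-labelled libraries for all 39. Tk1 had 159.6 TPM in lymphoma and 172 in Notch-labelled libraries, and Rfc2 138 TPM in doubly activated and 145 in Notch-labelled libraries. In doubly activated against Notch-labelled cells Rfc2 went from log2 0.11 by CPM to -0.07 by TPM. Mcm4 shifted alike, from -2.07 to -2.24. Lymphoma came second for 32 genes by CPM and 26 by TPM. The lowest mean was in doubly activated cells for 18 genes, in NF-kB-activated cells for 16, in control for 3 and in lymphoma for 2, and by TPM for 24, 8, 2 and 5. Summed over the 39 genes, the level was 2326 and 2310 CPM in lymphoma, 1458 and 1414 in doubly activated, 5471 and 5338 in Notch-labelled, 1388 and 1257 in NF-kB-activated and 1760 and 1639 in control libraries. The 2 control libraries differed among themselves, with 33 of the 39 genes higher in library 1 than in library 2 and a median difference of log2 0.16 between them. In doubly activated cells 30 genes, in NF-kB-activated cells 28, in Notch-labelled cells 26 and in lymphoma 20 were higher in library 1.

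**Figure D1:**
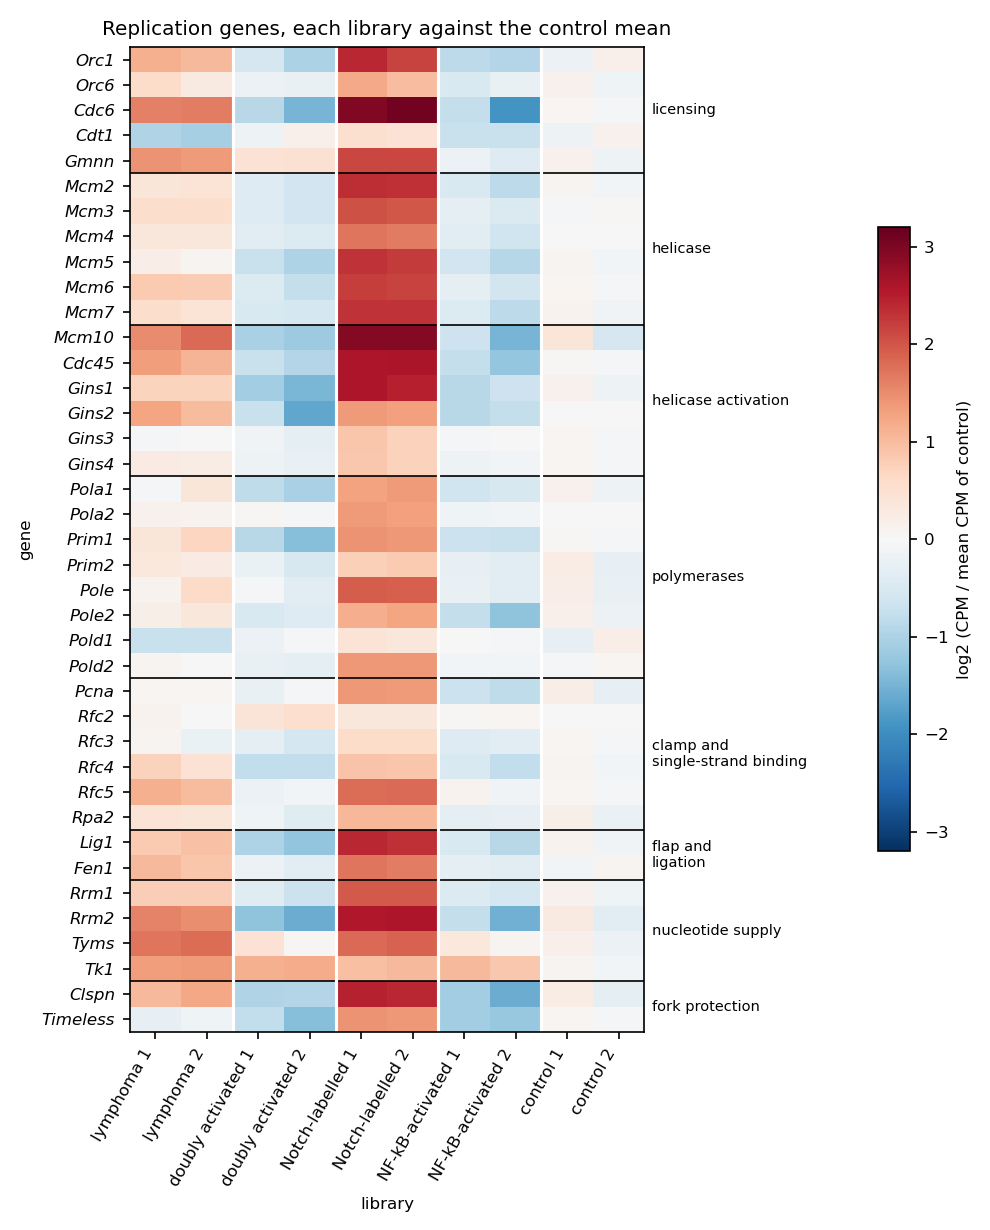
Level of each of the 39 genes (rows, grouped by role) in each of the 10 libraries (columns), as log2 of its CPM over the mean CPM of the 2 control libraries; red is above and blue below control. The 2 Notch-labelled columns are red for all genes and the lymphoma columns for most, while the doubly activated and NF-kB-activated columns are blue for most genes, with Tk1 red in all of them.

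In licensing, Cdc6, the loader of the Mcm ring, spanned the widest range on the log2 scale. It was measured at 25.4 and 25.9 CPM in lymphoma, 4.51 and 2.94 in doubly activated, 65.2 and 70.2 in Notch-labelled, 4.88 and 2.20 in NF-kB-activated and 8.61 and 7.997 in control libraries. Its 2 Notch-labelled libraries lie above all others, lymphoma follows, and the doubly activated and NF-kB-activated libraries all lie below control. Cdt1, which brings the ring to the origin and had the highest average of the licensing genes, read 39.2 and 36.8 CPM in lymphoma, 68.04 and 85.8 in doubly activated, 109 and 106 in Notch-labelled, 46.9 and 46.7 in NF-kB-activated and 68.5 and 84.3 in control libraries. Here lymphoma was the lowest group, and the doubly activated and control libraries overlapped. Gmnn encodes geminin, the inhibitor of Cdt1 that is destroyed outside S, G2 and M phases, and read 38.4 and 36.5 CPM in lymphoma, 19.4 and 19.6 in doubly activated, 62.3 and 62.5 in Notch-labelled, 12.3 and 10.6 in NF-kB-activated and 15.5 and 12.7 in control libraries. Both doubly activated libraries lay above both control libraries. Orc1, the cell cycle regulated subunit of the origin recognition complex, ranged over 13.1 to 15.3 CPM in Notch-labelled and 1.44 to 6.38 CPM in all other libraries, and Orc6, its smallest subunit, over 29.9 to 34.9 and 10.7 to 22.7 CPM.

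The helicase subunits had like profiles. Mcm6, with the highest average of the ring, read 152 and 151 CPM in lymphoma, 63.4 and 50.9 in doubly activated, 399 and 384 in Notch-labelled, 69.4 and 56.99 in NF-kB-activated and 88.99 and 82.4 in control libraries. Mcm5 read 99.7 and 92.4 CPM in lymphoma, 52.6 and 43.8 in doubly activated, 430.1 and 406 in Notch-labelled, 56.7 and 45.5 in NF-kB-activated and 90.96 and 81.7 in control libraries. In both genes no library of one group overlapped with another group except between doubly activated and NF-kB-activated cells. Averages of the other 4 subunits ran from 249 (Mcm4) to 404 CPM (Mcm2) in Notch-labelled, from 99.6 (Mcm4) to 116 CPM (Mcm3) in lymphoma and from 77.8 (Mcm4) to 81.3 CPM (Mcm7) in control libraries.

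Of the genes that activate the helicase, Gins4, a GINS subunit with the highest average of this role, read 27.5 and 27.1 CPM in lymphoma, 20.5 and 19.5 in doubly activated, 41.5 and 38.4 in Notch-labelled, 20.5 and 21.7 in NF-kB-activated and 23.9 and 22.2 in control libraries. Its range was narrow, with all Notch-labelled libraries above the others. Gins1, another subunit of the same complex, read 7.12 and 7.18 CPM in lymphoma, 2.005 and 1.57 in doubly activated, 26.3 and 24.5 in Notch-labelled, 2.36 and 2.78 in NF-kB-activated and 4.80 and 3.92 in control libraries. Cdc45, the partner of GINS on the ring, read 27.2 and 22.97 CPM in lymphoma, 6.63 and 5.69 in doubly activated, 65.1 and 66.3 in Notch-labelled, 6.34 and 4.61 in NF-kB-activated and 11.1 and 10.6 in control libraries. Gins1 and Cdc45 were below both control libraries in all 4 doubly activated and NF-kB-activated libraries.

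Pold1, the catalytic subunit of polymerase delta and the most abundant of the polymerase genes by counts, read 101 and 102 CPM in lymphoma, 147 and 161 in doubly activated, 224 and 212 in Notch-labelled, 163 and 159 in NF-kB-activated and 139.7 and 193 in control libraries. Lymphoma lay below every other library, and the 2 control libraries were far apart. Pcna, the sliding clamp, read 158 and 158 CPM in lymphoma, 128 and 149 in doubly activated, 399 and 389 in Notch-labelled, 94.5 and 86.3 in NF-kB-activated and 177 and 128 in control libraries. Its NF-kB-activated libraries were the lowest, while the 2 control libraries enclosed both lymphoma libraries. Rfc2, a clamp loader subunit, read 115 and 106 CPM in lymphoma, 140.0 and 153 in doubly activated, 136 and 136 in Notch-labelled, 108 and 110.3 in NF-kB-activated and 106 and 104 in control libraries. In this gene the doubly activated libraries were the highest by CPM, but by TPM, at 135 and 141, they lay below the Notch-labelled ones at 144 and 145.

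Lig1, the ligase that joins Okazaki fragments, read 82.2 and 87.8 CPM in lymphoma, 23.3 and 19.2 in doubly activated, 243 and 234 in Notch-labelled, 32.6 and 24.8 in NF-kB-activated and 49.3 and 42.7 in control libraries. Its groups did not overlap, and both doubly activated libraries lay below both NF-kB-activated ones. Rrm1, the large subunit of ribonucleotide reductase, read 122 and 122 CPM in lymphoma, 54.1 and 43.7 in doubly activated, 277 and 273 in Notch-labelled, 52.3 and 47.5 in NF-kB-activated and 77.4 and 63.8 in control libraries, and doubly activated and NF-kB-activated libraries overlapped. Rrm2, the small subunit whose protein is limited to S phase, read 99.2 and 91.7 CPM in lymphoma, 13.5 and 10.9 in doubly activated, 195 and 199 in Notch-labelled, 19.5 and 11.4 in NF-kB-activated and 40.3 and 25.5 in control libraries. The lymphoma and Notch-labelled libraries all lay above control here. Tyms, thymidylate synthase, read 53.2 and 56.3 CPM in lymphoma, 22.2 and 16.6 in doubly activated, 56.8 and 59.7 in Notch-labelled, 20.5 and 17.1 in NF-kB-activated and 18.1 and 14.3 in control libraries. Its lymphoma and Notch-labelled libraries lay side by side in CPM, at 53.2 and above, but not in TPM, with 38.2 and 39.4 in lymphoma and 80.96 and 87.4 in Notch-labelled libraries. Tk1, thymidine kinase of the salvage pathway, read 131 and 134 CPM in lymphoma, 116 and 119 in doubly activated, 103 and 107 in Notch-labelled, 109 and 95.4 in NF-kB-activated and 55.7 and 49.2 in control libraries. Control was the lowest group in Tk1, and every library of the other 4 groups reached at least 95.4 CPM.

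Timeless, which holds the polymerases to the helicase at the fork, read 33.5 and 36.3 CPM in lymphoma, 23.1 and 15.6 in doubly activated, 109.7 and 106 in Notch-labelled, 18.6 and 17.4 in NF-kB-activated and 41.6 and 38.7 in control libraries. Lymphoma lay below control in this gene, as did the doubly activated and NF-kB-activated libraries. Clspn encodes claspin, the mediator of the replication checkpoint, and read 36.9 and 42.4 CPM in lymphoma, 9.30 and 9.42 in doubly activated, 100.3 and 96.7 in Notch-labelled, 8.39 and 5.97 in NF-kB-activated and 21.3 and 14.9 in control libraries. Its NF-kB-activated libraries were the lowest and all lay below control.

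**Figure D2:**
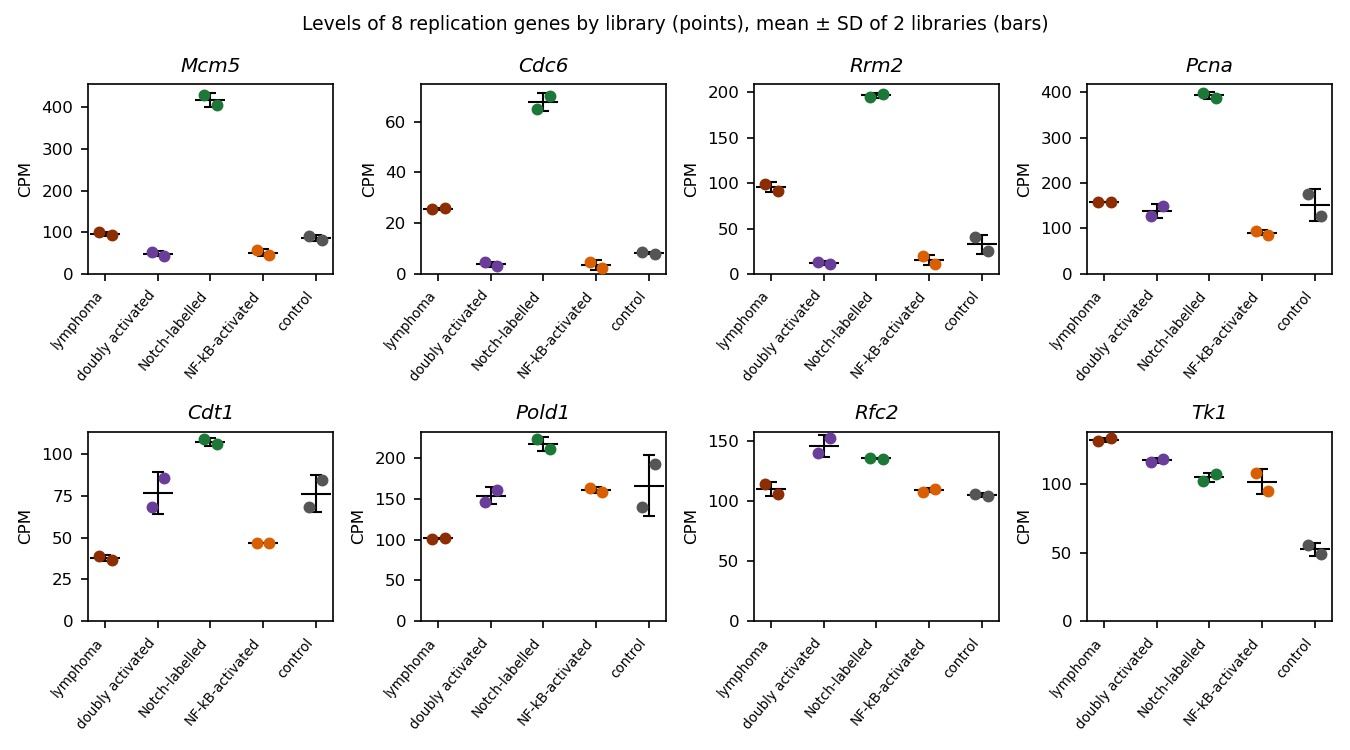
CPM (linear axis from 0) of 8 genes in each group; points are the 2 libraries and bars the mean ± SD. Mcm5, Cdc6, Rrm2 and Pcna peak in Notch-labelled cells, while Cdt1 and Pold1 are lowest in lymphoma, Rfc2 is highest in doubly activated cells by CPM (by TPM in Notch-labelled ones) and Tk1 is lowest in control.

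Notch-labelled cells against control showed the broadest change, and it ran 1 way. All 39 genes rose and 0 fell, against 34.2% of all genes tested that rose and 29.5% that fell in this comparison, and DESeq2 also gave 39 and 0. The median difference of the 39 was log2 1.68, against 0.07 over all genes. The helicase ring rose as a whole, from log2 1.68 for Mcm4 to 2.35 for Mcm2. Cdc6 rose most, to 67.7 ± 3.53 CPM in Notch-labelled against 8.30 ± 0.434 CPM in control cells (SD, n = 2 each; log2 3.03 ± 0.25, edgeR adjusted p = 2.1e-06), which is a ratio of 8.15. Mcm10, which helps to start the helicase, rose with it (log2 2.94), followed by Cdc45 (2.60), Rrm2 (2.59) and Gins1 (2.54). By TPM, Tyms (log2 3.37) and Mcm10 (3.28) were ahead of Cdc6 (3.08). The smallest rises were those of Rfc2 (log2 0.37 ± 0.08, edgeR adjusted p = 0.00115), Pold1 (log2 0.39 ± 0.12, edgeR adjusted p = 0.0146) and Cdt1 (log2 0.49 ± 0.12, edgeR adjusted p = 0.00285). The call for Pold1 was lost without control library 1 (edgeR adjusted p = 0.128), without Notch-labelled library 1 (0.0829) and in a fit of these 2 groups alone (0.0828).

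Within this difference, subunits of a complex moved by unequal amounts. In GINS, Gins1 rose by log2 2.54 and Gins2 by 1.34, but Gins3 by 0.81 and Gins4 by 0.80. The order depended on the unit: by TPM the same 4 differences were 2.85, 3.08, 0.87 and 0.86, with Gins2 at 60.6 TPM in Notch-labelled and 7.17 TPM in control libraries. Among the polymerases, Pole, the catalytic subunit of polymerase epsilon, rose by 1.93 and Pold1 by 0.39. The clamp loader subunits ranged from 0.37 (Rfc2) to 1.79 (Rfc5). The values for Rfc4 (0.90, or 1.57 by TPM) and Tyms (1.85, or 3.37) moved with the unit too. Whether one subunit differed from another was not tested. Markers of other cells moved with this comparison: all 4 stromal markers rose, with sums of 618 and 837 CPM in Notch-labelled and 2.21 and 3.10 CPM in control libraries (Dcn at 0 in control), and 6 of 8 B cell markers fell, with 3796 and 3547 against 9721 and 9577 CPM. Neutrophil markers summed to 65.2 and 62.3 CPM in Notch-labelled and 0.307 and 17.95 CPM in control libraries. Other lists with called genes were T cell markers (3 rose and 1 fell of 7), macrophage markers (1 rose and 3 fell of 7), neutrophil markers (3 rose of 8), erythroid markers (3 rose of 4), plasma cell markers (3 rose and 1 fell of 5) and germinal centre markers (3 fell of 6). Their part in the rise was not tested, and in sorted bulk samples fewer cells of a type and less RNA per cell cannot be told apart. The group also differs from control in labelled cell type, in clonal V gene use and in Ddx3y, which cannot be told apart from the genotype.

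NF-kB-activated cells went the other way, by smaller amounts. Against control 22 of the 39 genes fell, 1 rose and 16 did not pass (6.6% of all genes tested fell and 8.72% rose), with a median of log2 -0.50 against 0 over all genes. All 6 helicase subunits fell, from log2 -0.39 (Mcm3) to -0.76 (Mcm5). Mcm5 was at 51.1 ± 7.92 CPM in NF-kB-activated and 86.3 ± 6.58 CPM in control cells (SD, n = 2 each; edgeR adjusted p = 0.000891). Both fork protection genes fell, and claspin fell most of all, to 7.18 ± 1.71 CPM against 18.1 ± 4.54 CPM in control (log2 -1.33 ± 0.19, edgeR adjusted p = 0.000513). Cdc6 (log2 -1.23 ± 0.29, edgeR adjusted p = 0.0165) and Timeless followed (log2 -1.16 ± 0.15, edgeR adjusted p = 0.000177), and Pcna (log2 -0.75 ± 0.13, edgeR adjusted p = 0.00257), Cdt1 (log2 -0.71 ± 0.12, edgeR adjusted p = 0.00159), Cdc45 (-0.98), Prim1 (-0.71), the primase catalytic subunit, and Lig1 (-0.68) fell too. Tk1 alone rose, to 102 ± 9.28 CPM against 52.4 ± 4.63 CPM in control (log2 0.96 ± 0.09, edgeR adjusted p = 1.69e-05).

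How many genes fell here depended on single libraries: 10 fell without NF-kB-activated library 2, 13 without control library 1 and 15 in a fit of these 2 groups alone. Calls for Cdt1, Mcm2, Mcm5, Mcm7, Cdc45, Prim1, Pcna, Lig1, Clspn, Timeless and Tk1 were kept in every alternative run. Those for Cdc6 (edgeR adjusted p = 0.0165), Mcm3, Mcm4, Mcm6, Rrm1, Gins1, Gins2, Pola1, Pole2, Rfc4, Fen1 and Rrm2 (edgeR adjusted p = 0.0496) were lost in at least 1, and that for Mcm6 reached an edgeR adjusted p of 0.2 without NF-kB-activated library 2. Without both Notch-labelled libraries 18 fell, and over all genes 849 of 14524. Neutrophil markers moved with this comparison: 4 of 8 rose, with sums of 448 and 133 CPM in NF-kB-activated and 0.307 and 17.95 CPM in control libraries, where S100a8, Ngp, Camp, Lcn2 and Elane were at 0 in library 1. Calls were also made among B cell markers (3 fell of 8), T cell markers (1 fell of 7), erythroid markers (1 rose of 4) and plasma cell markers (1 rose of 5). The part of these markers in the falls was not tested. Control has no Cre listed, and Ddx3y read 173 and 178 CPM in NF-kB-activated against 59.8 and 0.653 CPM in control libraries. Neither difference can be told apart from the NF-kB allele.

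Cells with both activations also showed more falls than rises. Against control 18 genes fell, 3 rose and 18 did not pass (9.3% of all genes tested fell and 10.5% rose), with a median of log2 -0.45. The helicase ring fell in all 6 subunits, from log2 -0.39 (Mcm4) to -0.84 (Mcm5), and both fork genes fell. The deepest fall was in Rrm2, to 12.2 ± 1.89 CPM in doubly activated against 32.9 ± 10.5 CPM in control cells (SD, n = 2 each; log2 -1.42 ± 0.30, edgeR adjusted p = 0.0171). Gins1 (log2 -1.27 ± 0.24, edgeR adjusted p = 0.00245), Cdc6 (log2 -1.14 ± 0.29, edgeR adjusted p = 0.0206), Lig1 (log2 -1.11 ± 0.14, edgeR adjusted p = 0.000132) and Prim1 (log2 -1.11 ± 0.15, edgeR adjusted p = 0.000276) followed. The 3 rises were in Tk1, at 117 ± 1.66 against 52.4 ± 4.63 CPM (log2 1.16 ± 0.09, edgeR adjusted p = 3.02e-06), Rfc2 (log2 0.47 ± 0.08, edgeR adjusted p = 0.000907) and Gmnn (log2 0.47 ± 0.13, edgeR adjusted p = 0.0202). Fewer genes fell without doubly activated library 2, both among the 39 and over all genes. Leaving out that library ended, by edgeR adjusted p, the calls for Cdc6 (0.154), Mcm2 (0.0937), Mcm4 (0.112), Mcm7 (0.0949), Cdc45 (0.0561), Rrm1 (0.0804), Rrm2 (0.125) and Gmnn (0.0934). Scaled by library size alone, 1338 of all genes rose and 1873 fell, against 1641 and 1449 with TMM, and of the 39 genes 3 rose and 22 fell. Of the macrophage markers 3 of 7 and of the T cell markers 3 of 7 fell, with sums of 26.6 and 16.4 against 45.1 and 159.7 CPM and of 55.2 and 40.3 against 76.01 and 84.9 CPM (Itgam at 0 in doubly activated library 1). Beside these, genes were called among B cell markers (1 rose and 2 fell of 8), plasma cell markers (2 rose and 1 fell of 5) and germinal centre markers (2 fell of 6). The part of these markers was not tested. Control also lacks a listed Cre, and Ddx3y read 109.6 and 187 CPM in doubly activated against 59.8 and 0.653 CPM in control libraries. Neither difference can be told apart from the alleles.

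**Figure D3:**
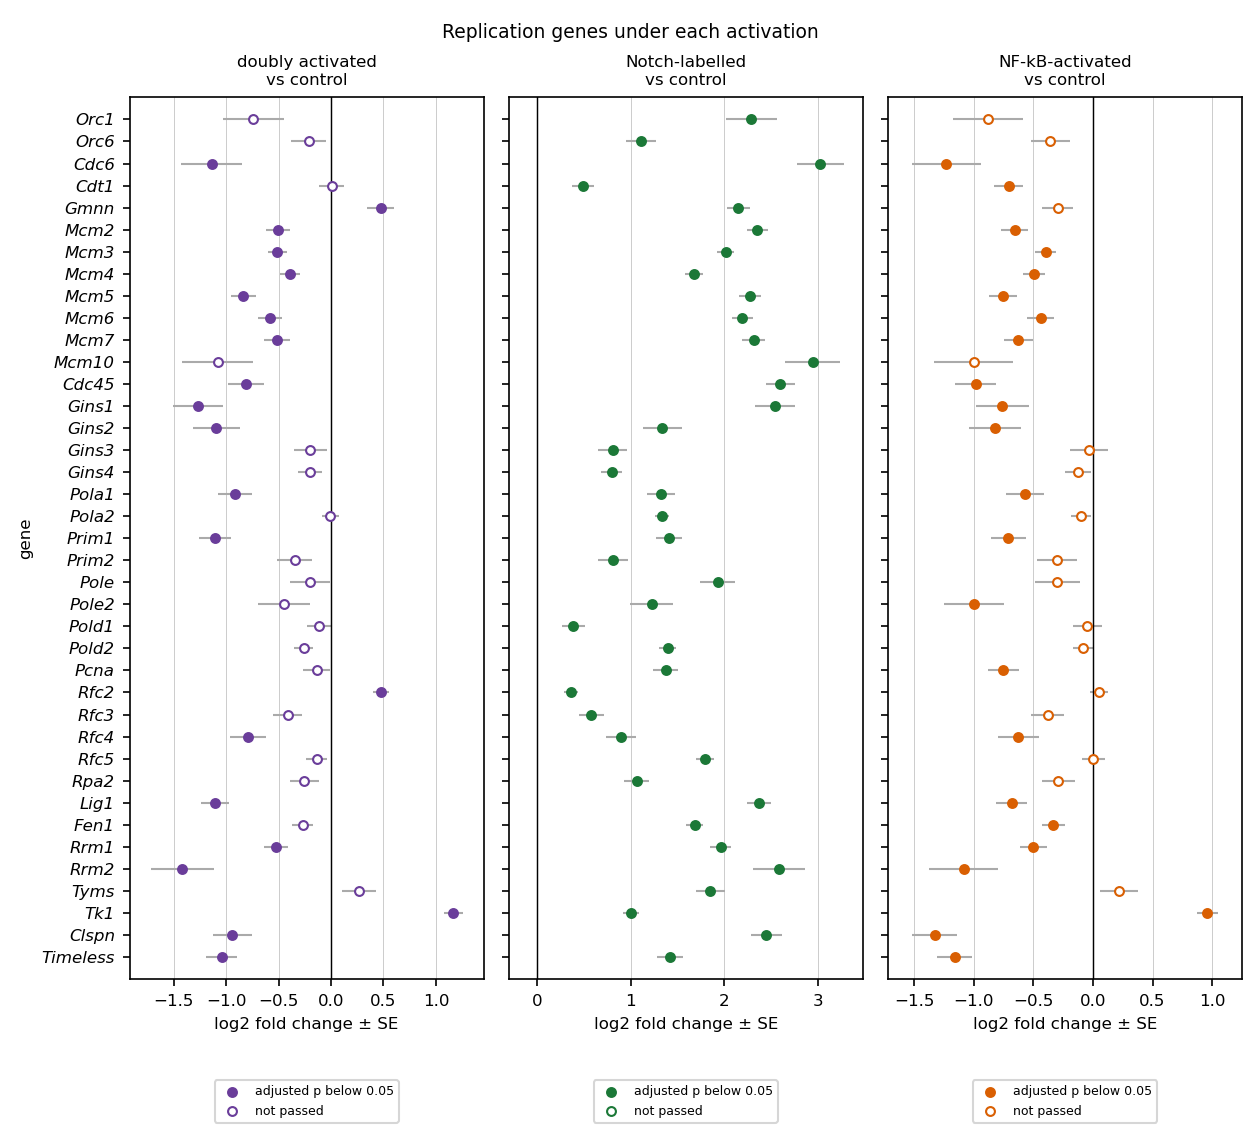
Log2 fold change ± SE of each gene (rows) in doubly activated, Notch-labelled and NF-kB-activated cells against control; filled points have an edgeR adjusted p below 0.05, and the axes differ between panels. All 39 points are filled and above 0 in the middle panel, while in the outer panels most filled points are below 0 and Tk1 is far to the right. The 3 comparisons share the control libraries.

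Set directly against NF-kB-activated cells, doubly activated cells differed in few of these genes. Here 4 rose, 0 fell and 35 did not pass, with a median of log2 0.04, or -0.14 from the authors' TPM (6.62% of all genes tested rose and 7.28% fell); 2 genes were lower at an unadjusted p below 0.05, and DESeq2 called 1 fall. The 4 were Gmnn, at 19.5 ± 0.137 against 11.4 ± 1.23 CPM (SD, n = 2 each; log2 0.77 ± 0.13, edgeR adjusted p = 0.00219), its target Cdt1, at 76.9 ± 12.5 against 46.8 ± 0.135 CPM (log2 0.71 ± 0.12, edgeR adjusted p = 0.00241), Pcna (log2 0.61 ± 0.13, edgeR adjusted p = 0.0112) and Rfc2 (log2 0.42 ± 0.08, edgeR adjusted p = 0.00372). For Pcna the call was lost without doubly activated library 2 (edgeR adjusted p = 0.109) or NF-kB-activated library 2 (0.097). A gene that did not pass is not shown to be equal: Lig1, for example, differed by log2 -0.43 ± 0.14 (edgeR adjusted p = 0.0602). By library size alone 783 of all genes rose and 1521 fell, against 1031 and 1134. All 8 neutrophil markers fell in this comparison, with sums of 5.90 and 0.262 CPM in doubly activated and 448 and 133 CPM in NF-kB-activated libraries (Camp and Elane at 0 in both doubly activated libraries). Genes were also called among B cell markers (2 rose and 1 fell of 8), T cell markers (2 fell of 7), macrophage markers (3 fell of 7), plasma cell markers (1 rose of 5) and germinal centre markers (1 fell of 6), and the part of these markers was not tested. By TPM, 9 of the 35 genes that did not pass had the other sign, and Mcm10 differed by log2 -0.89 in place of -0.08.

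The Notch allele was shared by doubly activated and Notch-labelled cells, but 37 of the 39 genes fell and 0 rose in doubly activated cells (33.2% of all genes tested fell and 30.9% rose), with a median of log2 -2.07. Rfc2 (log2 0.11 ± 0.08, edgeR adjusted p = 0.231) and Tk1 (log2 0.16 ± 0.09, edgeR adjusted p = 0.125) did not pass, and both were below 0 by TPM (-0.07 and -0.09). Cdc6 fell most, to 3.73 ± 1.11 CPM in doubly activated against 67.7 ± 3.53 CPM in Notch-labelled cells (SD, n = 2 each; log2 -4.17 ± 0.28, edgeR adjusted p = 3.77e-07), followed by Mcm10 (-4.03), Rrm2 (-4.01) and Gins1 (-3.82). By TPM Mcm10 fell most (-4.60), and Gins2 fell by log2 4.12 in place of 2.43 and Tyms by 3.07 in place of 1.58. All 4 stromal and 6 of 8 neutrophil markers fell as well and 7 of 8 B cell markers rose (neutrophil sums of 5.90 and 0.262 CPM in doubly activated and 65.2 and 62.3 CPM in Notch-labelled libraries). Further calls were among T cell markers (4 fell of 7), macrophage markers (2 fell of 7), erythroid markers (2 fell of 4), plasma cell markers (1 rose and 2 fell of 5) and germinal centre markers (2 rose and 2 fell of 6); the part of these markers was not tested. A fit of these 2 groups alone gave 1 rise. The groups also differ in labelled cell type, in V gene use and in Ddx3y, at 109.6 and 187 CPM in doubly activated and 2.40 and 1.88 CPM in Notch-labelled libraries. These differences cannot be told apart from the NF-kB allele. The interaction of both activations asks whether the difference of doubly activated from NF-kB-activated cells equals that of Notch-labelled from control cells. It was below 0 for 36 of the 39 genes and above 0 for 0 (25.6% and 23.9% of all genes tested), with a median of log2 -1.62 against -0.05 over all genes. The largest was that of Gins1 (log2 -3.06 ± 0.32, edgeR adjusted p = 9.61e-06), then Mcm10 (-3.03), Cdc6 (-2.94), Rrm2 (-2.92) and Lig1 (-2.80). By TPM Mcm10 was the largest (-4.17), and Tyms was at -3.80 in place of -1.80. Cdt1 (log2 0.22 ± 0.17, edgeR adjusted p = 0.293), Rfc2 (log2 0.06 ± 0.11, edgeR adjusted p = 0.701) and Pole2 (log2 -0.67 ± 0.34, edgeR adjusted p = 0.125) did not pass. All 8 neutrophil markers had an interaction below 0 too, and interactions were called among B cell markers (6 above 0 and 1 below 0 of 8), T cell markers (3 below 0 of 7), macrophage markers (1 below 0 of 7), erythroid markers (4 below 0 of 4), plasma cell markers (1 above 0 and 2 below 0 of 5), germinal centre markers (2 above 0 of 6) and stromal markers (2 below 0 of 4); their part was not tested. The interaction rests on the Notch-labelled libraries with the limits given for them, and no value can be had without them. By library size alone it was above 0 for 2971 and below 0 for 4824 of all genes, against 3728 and 3989, and of the 39 genes below 0 for 36.

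Lymphoma cells had more of most of these transcripts than doubly activated cells of the same genotype. Of the 39 genes 32 rose, 3 fell and 4 did not pass (26.1% of all genes tested rose and 25.2% fell), with a median of log2 0.99, or 0.75 by TPM. The whole helicase ring rose, from log2 0.75 (Mcm4) to 1.40 (Mcm6), and 5 of 6 helicase activation genes rose, with Mcm10 (log2 2.76 ± 0.32, edgeR adjusted p = 8.52e-05) ahead. Rrm2 rose most by CPM, to 95.5 ± 5.31 CPM in lymphoma against 12.2 ± 1.89 CPM in doubly activated cells (SD, n = 2 each; log2 2.96 ± 0.30, edgeR adjusted p = 0.00014), a ratio of 7.83 (log2 2.62 by TPM, where Mcm10 led with 2.95), and Cdc6 by a ratio of 6.89 (log2 2.77 ± 0.27, edgeR adjusted p = 1.27e-05). Lig1 (log2 1.99 ± 0.13, edgeR adjusted p = 1.81e-07), Prim1 (log2 1.65 ± 0.15, edgeR adjusted p = 1.83e-06) and Clspn (log2 2.08 ± 0.18, edgeR adjusted p = 1.67e-06) rose too. The 3 falls were in Cdt1, at 38.01 ± 1.72 against 76.9 ± 12.5 CPM (log2 -1.01 ± 0.12, edgeR adjusted p = 2.05e-05), Pold1, at 102 ± 0.512 against 154 ± 10.4 CPM (log2 -0.60 ± 0.12, edgeR adjusted p = 0.00155), and Rfc2 (log2 -0.41 ± 0.08, edgeR adjusted p = 0.000769). Gins3, Pola2, Pcna and Tk1 did not pass. Calls near the threshold, for Orc6, Prim2, Pole, Pole2, Pold2 and Rfc3 (edgeR adjusted p = 0.0468), were lost in at least 1 alternative.

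The licensing pair Cdt1 and geminin moved in opposite directions in lymphoma. Gmnn was at 37.5 ± 1.37 CPM in lymphoma and 19.5 ± 0.137 CPM in doubly activated cells (log2 0.94 ± 0.12, edgeR adjusted p = 3.55e-05), while Cdt1 fell as given above. In polymerase delta Pold1 fell, while the call of a rise for the subunit Pold2 (log2 0.30 ± 0.09, edgeR adjusted p = 0.0148) was not kept in every alternative. It was lost by DESeq2 (adjusted p = 0.0501), in a fit of these 2 groups alone (edgeR adjusted p = 0.0574) and without lymphoma library 1 (0.087), doubly activated library 1 (0.0559) or doubly activated library 2 (0.0748). By TPM Pold2 was lower, at 33.6 in lymphoma and 34.5 in doubly activated libraries. Pold4, a further subunit that is not among the 39, also fell (log2 -2.15 ± 0.09, edgeR adjusted p = 2.2e-09). Markers of plasma cells moved with lymphoma: 4 of 5 rose, with sums of 1940 and 2083 CPM in lymphoma and 587 and 723 CPM in doubly activated libraries, and 7 of 8 B cell markers fell, with 6104 and 5862 against 8407 and 8285 CPM. None of these markers was at 0. Changes were also called for T cell markers (3 fell of 7), macrophage markers (2 rose of 7), germinal centre markers (1 rose and 2 fell of 6) and stromal markers (1 fell of 4), and the part of these markers in the result was not tested. The most used V segment held 92.3 and 92.1% of the Ighv counts in lymphoma and 6.3 and 7.29% in doubly activated libraries. Tissue and V gene use differ between these groups with the lymphoma state and cannot be told apart from it.

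Lymphoma was also higher than wild type control in many of these genes: 24 rose, 2 fell and 13 did not pass (27.8% of all genes tested rose and 25.6% fell), with a median of log2 0.51. That median was 0.18 when taken from the authors' TPM in place of CPM. TPM are not scaled by TMM, and no median over all genes is given for them. Single genes shifted alike between the units: Mcm4 from log2 0.36 to 0.08, Gins3 from -0.007 to -0.28 and Rrm1 from 0.79 to 0.51. All 4 nucleotide supply genes rose, and Tyms rose most, to 54.7 ± 2.22 CPM in lymphoma against 16.2 ± 2.67 CPM in control (SD, n = 2 each; log2 1.76 ± 0.15, edgeR adjusted p = 1.27e-06). Mcm10 (1.67), Cdc6 (1.63), Rrm2 (1.54), Gmnn (1.41) and Tk1 (1.34) followed. Of the polymerase genes 1 of 8 rose, Prim1 (log2 0.55 ± 0.14, edgeR adjusted p = 0.0058), and 1 fell, Pold1 (log2 -0.71 ± 0.12, edgeR adjusted p = 0.000429). The call for Prim1 was lost without lymphoma library 2. Calls for Orc6, Mcm2, Gins1, Rfc4 and Rpa2 were also lost in at least 1 alternative, that for Orc6 by DESeq2 too (adjusted p = 0.0808). Cdt1 was the other fall (log2 -1.01 ± 0.12, edgeR adjusted p = 1.99e-05). Mcm5 (log2 0.15 ± 0.11, edgeR adjusted p = 0.281), Pcna (log2 0.06 ± 0.13, edgeR adjusted p = 0.748) and Timeless (log2 -0.20 ± 0.14, edgeR adjusted p = 0.244) did not pass. By TPM 7 of the 13 genes that did not pass had the other sign, among them Mcm5 (-0.12) and Pcna (-0.29). Rises numbered 20 without control library 2 and 27 without control library 1. Plasma cell markers rose for 3 of 5, with 1940 and 2083 against 349.9 and 366 CPM, and B cell markers fell for 7 of 8, with 6104 and 5862 against 9721 and 9577 CPM. Changes were also called for T cell markers (5 fell of 7), macrophage markers (1 rose and 4 fell of 7), erythroid markers (1 rose of 4), germinal centre markers (4 fell of 6) and stromal markers (1 fell of 4). The part of these markers was not tested. No Cre is listed for control, and Ddx3y read 144 and 154 CPM in lymphoma against 59.8 and 0.653 CPM in control libraries. Lymphoma also carries both alleles. Its most used V segment held 92.3 and 92.1% of the Ighv counts, against 5.97 and 5.53% in control libraries. None of these differences can be told apart from the lymphoma state.

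Lymphoma stayed below the Notch-labelled libraries in most of the set. In this comparison 35 genes fell, 1 rose and 3 did not pass (32.2% of all genes tested fell and 31% rose), with a median of log2 -1.18, or -1.51 by TPM. Mcm5 fell most, to 96.05 ± 5.22 CPM in lymphoma against 418 ± 17.3 CPM in Notch-labelled cells (SD, n = 2 each; log2 -2.12 ± 0.12, edgeR adjusted p = 3.25e-08), followed by Mcm2 (-1.94), Gins1 (-1.83) and Mcm7 (-1.81). Gins2 (log2 -0.20 ± 0.20, edgeR adjusted p = 0.394), Rfc4 (log2 -0.29 ± 0.16, edgeR adjusted p = 0.121) and Tyms (log2 -0.09 ± 0.14, edgeR adjusted p = 0.602) did not pass. These 3 depended on the unit: in TPM Gins2 averaged 11.5 in lymphoma and 60.6 in Notch-labelled libraries, Rfc4 22.97 and 62.95, and Tyms 38.8 and 84.2. The falls of Mcm6 (log2 -1.37, or -2.09 by TPM) and Pold2 (-1.36, or -2.19) were larger by TPM. Tk1 rose by CPM, at 133 ± 1.58 against 105 ± 3.25 CPM (log2 0.34 ± 0.09, edgeR adjusted p = 0.00501), a call that was lost with scaling by library size alone (edgeR adjusted p = 0.133). By TPM it was lower, at 159.6 in lymphoma and 172 in Notch-labelled libraries. With scaling by library size alone 3836 of all genes rose and 6047 fell, against 4835 and 5011, and the median over all genes moved to log2 -0.18 here, to 0.175 in Notch-labelled against control, to -0.20 in doubly activated against Notch-labelled cells and to -0.22 for the interaction. Medians of the 39 genes under it were -1.35, 1.78, -2.24 and -1.80, with no change of sign. All 4 stromal and 7 of 7 T cell markers fell and 4 of 5 plasma cell markers rose in this comparison. Changes were also called for B cell markers (7 rose and 1 fell of 8), macrophage markers (1 rose and 2 fell of 7), neutrophil markers (3 fell of 8) and germinal centre markers (1 rose and 1 fell of 6), and the part of these markers was not tested. Ddx3y read 144 and 154 CPM in lymphoma against 2.40 and 1.88 CPM in Notch-labelled libraries, which cannot be told apart from genotype and lymphoma state.

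**Figure D4:**
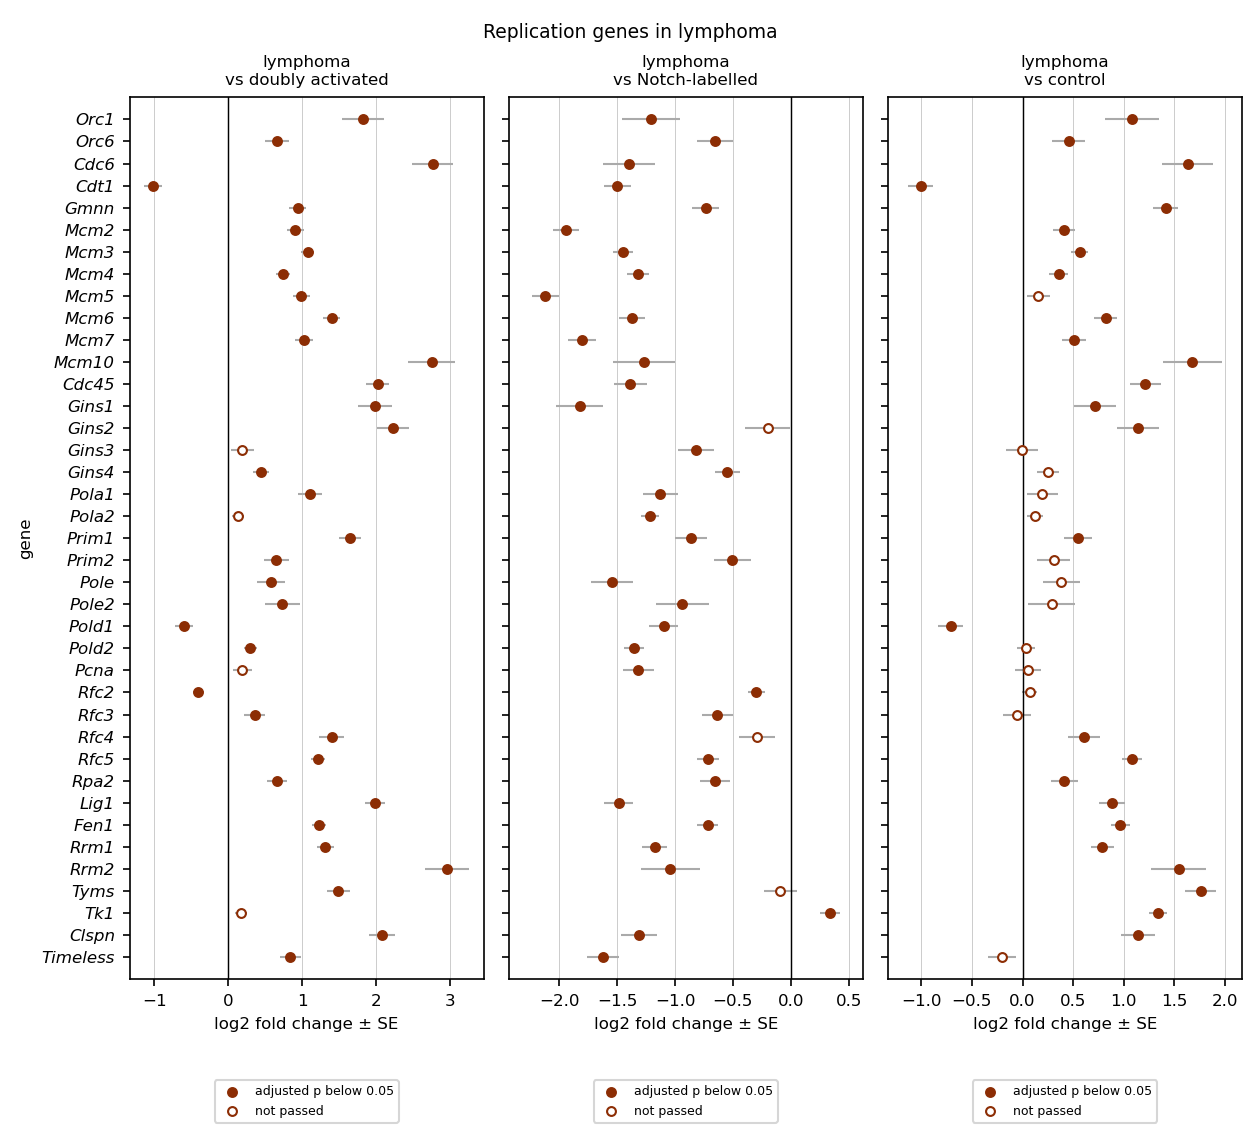
Log2 fold change ± SE of each gene (rows) in lymphoma against doubly activated, Notch-labelled and control cells; filled points have an edgeR adjusted p below 0.05, and the axes differ between panels. Most filled points are above 0 in the outer panels and below 0 in the middle one; Cdt1 and Pold1 lie below 0 in all 3, and Tk1 is the only filled point above 0 in the middle panel (below 0 by TPM). The 3 comparisons share the lymphoma libraries.

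The rise of Tk1 against control in all 4 other groups set it apart among the 39. Its counts were spread over 7 annotated transcripts. The single protein-coding one held 46.3 and 42.5% in lymphoma, 45.7 and 44.9% in doubly activated, 51.0 and 48.5% in Notch-labelled, 44.1 and 42.1% in NF-kB-activated and 32.5 and 39.1% in control libraries, and the remainder was assigned to transcripts with a retained intron. On the TPM scale, which allows for transcript length, this transcript alone stood at 52.2 and 53.0 in lymphoma, 54.5 and 52.2 in doubly activated, 58.9 and 59.2 in Notch-labelled, 52.1 and 44.4 in NF-kB-activated and 19.5 and 20.9 in control libraries. The coding transcript also had its lowest values in both control libraries. Tk1 lies on chromosome 11 (117815526 to 117826092, minus strand, GRCm38) and shares 83 exonic bases with Afmid on the other strand, which was at 31.5 and 35.9 CPM in lymphoma, 33.9 and 37.7 in doubly activated, 10.8 and 12.1 in Notch-labelled, 36.7 and 39.02 in NF-kB-activated and 26.8 and 27.1 in control libraries.

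Of the 39 genes 13 share exonic bases with a gene on the opposite strand, and 2, Mcm7 (with Mir25 and Mir93) and Pole2, with one on the same strand. Strandedness of the libraries is not stated, so reads of the shared bases cannot be told apart. The longest shared stretches were those of Gins2 with Gse1 (2758 bases), Fen1 with Gm10143 (1909) and Rfc2 with Lat2 (952). Lat2, which encodes an adaptor protein of B cells, was at 134 and 129 CPM in doubly activated, 47.4 and 48.5 CPM in Notch-labelled and 159 and 162 CPM in control libraries. Both groups in which Rfc2 rose thus lay below control in Lat2. Tmem258, which shares 130 exonic bases with Fen1, moved with it: it was at 96.4 and 79.6 CPM in lymphoma and 31.8 and 28.9 CPM in doubly activated libraries, and Fen1, the flap endonuclease, was at 71.4 and 65.3 CPM in lymphoma and 30.5 and 27.5 CPM in doubly activated libraries (log2 1.24 ± 0.10, edgeR adjusted p = 4.35e-07). Rfc5 shares 499 exonic bases with Wsb2. Wsb2 was at 84.1 and 78.5 CPM in lymphoma, 51.7 and 47.8 in Notch-labelled and 34.6 and 37.4 in control libraries. It was at 63.9 and 77.8 CPM in doubly activated and 65.6 and 62.2 in NF-kB-activated libraries. Rfc5 was at 63.6 and 58.6 CPM in lymphoma, 99.3 and 101 in Notch-labelled and 30.1 and 27.8 in control libraries. In doubly activated libraries Rfc5 was at 25.4 and 27.2 CPM, and in NF-kB-activated ones at 31.1 and 26.9. Rfc4 shares 194 exonic bases with Eif4a2. Eif4a2 was at 503 and 505 CPM in lymphoma and 269 and 273 CPM in Notch-labelled libraries. Rfc4 was at 20.3 and 16.8 CPM and at 23.04 and 22.4 CPM in the same libraries. Levels of Rfc2, Rfc4, Rfc5, Gins2 and Fen1 are uncertain because of such shared bases.

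Levels of different genes were compared per transcript length, in the TPM that the authors deposited, summed per gene. In the helicase ring Mcm7 had the highest TPM in all 10 libraries, and the highest subunit exceeded the lowest by 2.05 to 3.49 times. In the clamp loader Rfc2 was highest in all 10 libraries, and the ratio to the lowest subunit was 3.97 and 4.30 in lymphoma, 13.4 and 9.39 in doubly activated, 2.77 and 2.73 in Notch-labelled, 8.81 and 7.34 in NF-kB-activated and 5.13 and 5.21 in control libraries. In polymerase alpha-primase the catalytic subunit Pola1 was lowest throughout, by 2.48 to 6.90 times below the highest subunit. In GINS the ratio was 3.95 to 8.45, with Gins4 highest in all libraries but the Notch-labelled ones, where Gins2 was.

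**Figure D5:**
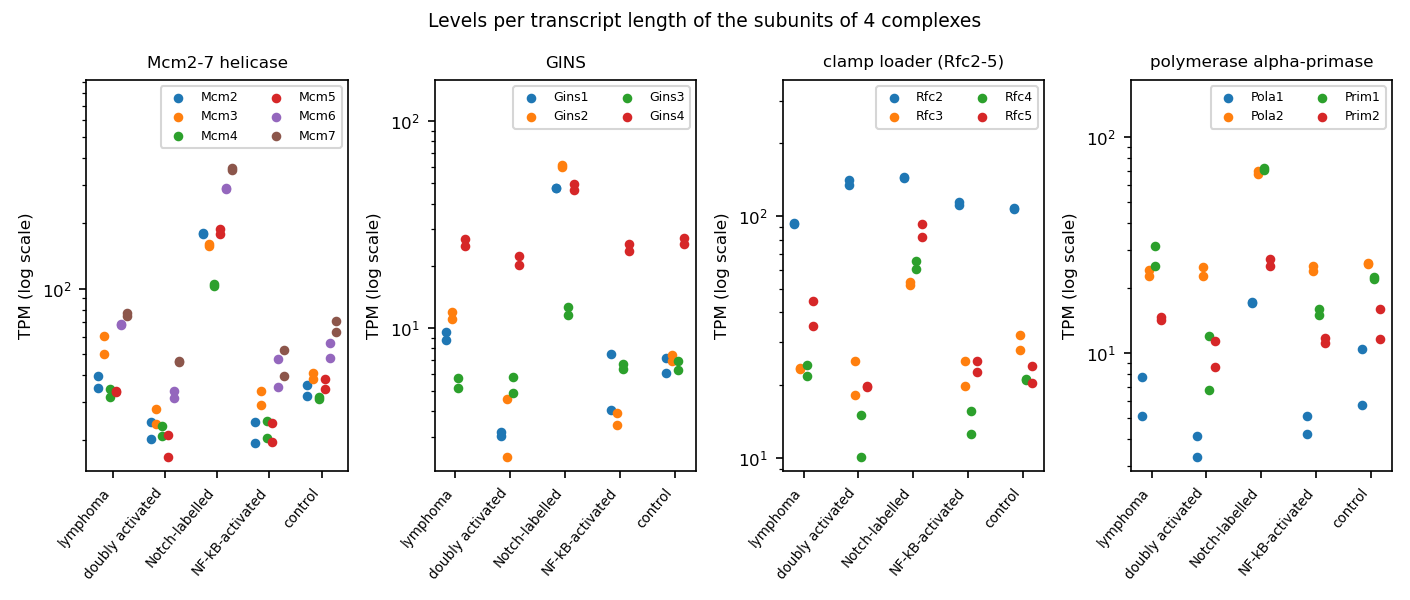
TPM (log axis) of the subunits of 4 complexes in each group, with 1 point for each library; the axes differ between panels. Subunits of the helicase ring keep close together, while Rfc2 stands far above Rfc3, Rfc4 and Rfc5 in doubly activated and NF-kB-activated libraries and nearer to them in Notch-labelled ones.

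Promoter letters and differences were set side by side without a test. The 14 genes with an E2F match had a median of log2 2.10 (0.39 to 3.03) in Notch-labelled against control cells, and the 17 matched genes without one had 1.42 (0.90 to 2.94). In lymphoma against doubly activated cells the order was the other way, with medians of 1.05 and 1.22. The ranges overlap, and Mcm10 and Rrm2, among the largest movers, had no match in their windows. Of the 3 genes that fell in lymphoma against doubly activated cells, Cdt1 and Pold1 each had 1 match, and Rfc2 has no matched window.

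Further replication factors that are not among the 39 were counted next. Of 33 such genes (origin recognition subunits, kinases, accessory polymerase subunits, checkpoint and chromatin factors) 20 rose and 6 fell in Notch-labelled against control cells (34.2% and 29.5% of all genes), with a median of log2 0.68. The steepest fall was that of Pold4, a small subunit of polymerase delta, at 12.6 and 13.5 CPM in Notch-labelled and 72.1 and 76.2 CPM in control libraries (log2 -2.50 ± 0.09, edgeR adjusted p = 8.17e-10). In NF-kB-activated against control cells 0 rose and 8 fell (8.72% and 6.6% of all genes; 0 higher at an unadjusted p below 0.05, 0 by DESeq2), among them Dna2, a flap nuclease (log2 -1.10 ± 0.15, edgeR adjusted p = 0.000356), and Rpa1, the large single-strand binding subunit (log2 -0.55 ± 0.08, edgeR adjusted p = 0.000444). In doubly activated cells 1 rose and 8 fell against control (10.5% and 9.3% of all genes), 2 rose and 1 fell against NF-kB-activated (6.62% and 7.28% of all genes), and 5 rose and 22 fell against Notch-labelled cells (30.9% and 33.2% of all genes). Lymphoma had 18 rises and 6 falls against doubly activated (26.1% and 25.2% of all genes), 14 and 8 against control (27.8% and 25.6% of all genes) and 4 and 23 against Notch-labelled cells (31% and 32.2% of all genes). The share of the 33 that fell in lymphoma against control is near that of all genes. Dtl, the adaptor that marks Cdt1 for destruction, rose in lymphoma to 49.04 ± 4.52 CPM against 14.9 ± 0.0511 CPM in doubly activated cells (log2 1.72 ± 0.17, edgeR adjusted p = 4.19e-06).

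The remaining lists were counted in the same way. Of 13 further nucleotide supply genes 8 rose and 3 fell in Notch-labelled against control cells (34.2% and 29.5% of all genes), and 9 rose and 2 fell in lymphoma against doubly activated cells (26.1% and 25.2% of all genes). All 8 chromatin assembly genes rose in Notch-labelled against control cells (34.2% of all genes). Among them was Uhrf1, which guides DNA methylation behind the fork (log2 2.68 ± 0.16, edgeR adjusted p = 3.28e-07). In NF-kB-activated against control cells 5 of the 8 fell and 0 rose (6.6% of all genes fell). By DESeq2 6 fell and 0 rose, with 0 higher at an unadjusted p below 0.05. Of 26 regulators of entry into S phase, 20 rose and 5 fell in Notch-labelled against control cells (34.2% and 29.5% of all genes). The share that fell is below that of all genes. Tfdp1, the partner of E2F factors, was at 217 and 216 CPM in Notch-labelled and 35.6 and 32.97 CPM in control libraries (log2 2.66 ± 0.12, edgeR adjusted p = 3.13e-09), and Cdkn1b, the inhibitor p27, fell (log2 -1.73 ± 0.08, edgeR adjusted p = 5.76e-09). In lymphoma against doubly activated cells 16 of the 26 rose and 3 fell (26.1% and 25.2% of all genes).

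Genes of mitosis were counted beside the replication set because both mark dividing cells. All 20 rose in Notch-labelled against control cells (median log2 2.43), where 34.2% of all genes rose. All 20 rose in lymphoma against doubly activated cells too (2.39), where 26.1% of all genes rose. In doubly activated against Notch-labelled cells all 20 fell (33.2% of all genes). Against control 14 fell in NF-kB-activated and 8 in doubly activated cells (6.6% and 9.3% of all genes). DESeq2 gave 18 and 15 falls there, and 18 and 15 were lower at an unadjusted p below 0.05. Their sums were 1542 and 1774 CPM in lymphoma, 301 and 278 in doubly activated, 3074 and 3019 in Notch-labelled, 316 and 212 in NF-kB-activated and 668 and 425 in control libraries. In lymphoma against control 19 of 20 mitosis genes rose (median 1.52), beside 24 of the 39 replication genes (median 0.51) and 27.8% of all genes. Ccnb2, a mitotic cyclin, was at 45.01 and 41.3 CPM in lymphoma, 4.68 and 5.36 CPM in doubly activated and 12.9 and 9.52 CPM in control libraries. Whether the lists differ was not tested.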

How the data were processed

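RNA from sorted B lineage cells was sequenced in 10 libraries. The authors deposited estimated counts per transcript, made with kallisto (version 0.44.0, build mm10, per the submitters' processing notes), for 88198 transcripts in each library. The authors also deposited TPM values, kallisto's transcript levels scaled by length and library, in the same tables. Of these, 86031 were matched to GENCODE M21 (GRCm38) and summed to 30205 genes; the other 2167, with 1.09% to 1.38% of counts, were left out, as was Chtf8, whose symbol has 2 IDs. Sums were rounded to whole numbers.

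Genes were filtered with filterByExpr (minimum count 10, total 15), scaled by TMM and fitted over all 5 groups with edgeR 4.0.16 (quasi-likelihood, robust, 5 residual degrees of freedom, limma 3.58.1, R 4.3.3); p-values were adjusted by Benjamini and Hochberg over 15583 genes in each of 9 comparisons. The fit was tested on simulated data. Tables were joined with pandas 2.3.3 and numpy 2.4.6. The members and lists were chosen with earlier results of these data known. Every library's value is given for the gene of highest mean CPM in each role and the called genes with the largest rise and fall in each comparison; called genes against the majority are named, and of other lists at most 2 genes per comparison, by p. Alternatives were DESeq2 1.42.0 and its size factors, library size alone, no filter, the compared groups alone, a block on replicate number and leaving out each library; leaving out both Notch-labelled or both lymphoma libraries and medians, single genes and the order of groups from TPM were added after seeing the data. Precision is limited by 2 libraries per group. Promoter sequences come from RefSeq (GRCm38.p6).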

Additional observations from a re-analysis of the deposited data

Results flagged for a closer look

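The difference of doubly activated from NF-kB-activated libraries was set against that of Notch-labelled from control libraries, by a test of the difference between them. The interaction term of the edgeR fit was below 0 for 36 of the 39 replication genes, with a median of log2 -1.62. It was above 0 for 0 of them (0 also at an unadjusted p below 0.05 and by DESeq2). Of all genes tested, 25.6% were below 0 and 23.9% above 0, with a median of log2 -0.05. Both doubly activated and both NF-kB-activated libraries enter it against the Notch-labelled and control libraries. The Notch-labelled pair also differs in labelled cell type, stromal markers, V gene use and Ddx3y and has less Notch2 than control. These differences cannot be told apart from the genotype. Groups of 2 libraries were too small for a test of single libraries that stand apart.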

How the results depend on the processing

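No call among the 39 genes reversed in any refit. Each call was checked once in each refit, so 1 call can count many times. It was kept in 4236 such checks and lost in 145, 64 of these in NF-kB-activated against control cells. Numbers of calls over all genes changed in the refits too. Genes that fell in that comparison numbered 22, with 10 to 22 when 1 library was left out. In doubly activated against control cells 18 fell, with 11 to 21. In doubly activated against NF-kB-activated cells 0 fell, but 1 with scaling by library size alone, no filter, the replicate block or DESeq2, and 0 to 3 with 1 library left out. In doubly activated against Notch-labelled cells 0 rose, but 1 in a fit of the compared groups alone and 0 to 1 with 1 library left out. In lymphoma against Notch-labelled cells 1 rose, and 0 with library size alone. In the authors' TPM no TMM scaling was applied and no test was run. Called differences kept their sign there but for Tk1 in lymphoma against Notch-labelled cells (log2 -0.11) and Pold2 in lymphoma against doubly activated cells (-0.036).

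No strong pairing by the replicate numbers of the labels was seen: deviations of same-numbered libraries correlated at -0.107 to 0.0863 over 10 pairs of groups and 10376 genes. With 2 libraries per group this cannot show that a number marks no shared day or batch. With the replicate block 20 genes fell in NF-kB-activated against control cells and 18 in doubly activated against control cells. Libraries left a group with 1 sample when 1 was left out, and that sample was assumed to vary like the other groups. With 2 libraries per group, a gene that did not pass is not shown to be unchanged.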
